A study of Mus musculus with 8 samples.

Results

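Glands that had received small extracellular vesicles (sEVs) from hypoxic tumor cells (sEVHYP) were compared with glands that had received sEVs from the same cells kept in normoxia (sEVNORM), across all genes with enough counts. The donor cells were AT3, a mouse mammary adenocarcinoma line that metastasizes. The sEVs were injected into the abdominal mammary gland of immunocompetent female C57BL/6 mice, whose age is not given in the sources used here, and RNA of the gland was sequenced 6 weeks later. Members were the 5 libraries that the sample labels assign to hypoxia exosomes (2 libraries) or normoxia exosomes (3 libraries), of 8 libraries in all. The other 3, from glands given sEVCTRL prepared from non-conditioned medium, entered the model and serve as a background level. All 8 libraries come from the same mouse strain and time point, and 1 cell line supplied both tumor sEV preparations. Of 51789 genes in the deposited table, 17858 had enough counts to be tested. RNA came from the whole gland, so that fewer cells of a type and less RNA per cell cannot be told apart.

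Tumor cells load sEVs with proteins, RNAs and lipids that other cells can take up, and oxygen shortage is known to change how many sEVs a cell releases and what they carry. In cells that are themselves short of oxygen, the hypoxia-inducible factors (HIFs) switch on glucose transporters, glycolytic enzymes and the angiogenic ligand Vegfa. The mammary gland is a tree of luminal and myoepithelial cells set in a fat pad of adipocytes with vessels and immune cells, next to muscle and skin. Adipocytes and other cells make cholesterol and fatty acids under the control of SREBP proteins, which sit in the membrane of the endoplasmic reticulum and move to the nucleus when sterols run low.

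Total counts were 20831117 to 24622569 for sEVNORM, 21809643 and 19165614 for sEVHYP, and 18194996 to 21932810 for sEVCTRL. Levels are in CPM, a gene's counts relative to its library's TMM-scaled total and therefore comparable between libraries for 1 gene, in the order of the replicate numbers, and a difference is the log2 of sEVHYP over sEVNORM from edgeR with its standard error (SE). Luminal and adipocyte markers were present in every library, with Epcam at 63.6 to 128 CPM and Adipoq at 679 to 1581 CPM, and summed luminal keratin and junction genes differed little (817 to 1110 CPM). Other tissues did not. The summed level of 32 skeletal muscle genes was 4834, 124 and 2576 CPM with sEVNORM, 7492 and 19566 CPM with sEVHYP, and 1072, 14581 and 3534 CPM with sEVCTRL, so that both sEVHYP libraries exceeded all sEVNORM libraries and sEVNORM replicate 2 held almost no muscle. Of the 32, 24 were higher and 8 lower (median difference 2.09), and the slow-fibre myosin Myh7 was among the lower ones. Summed immunoglobulin constant regions were 4598, 10275 and 7507 CPM with sEVNORM, 5808 and 2475 CPM with sEVHYP, and 3594 to 18027 CPM with sEVCTRL. The part of these tissue amounts in the differences reported here was not tested beyond a fit with the muscle level as a covariate, whose values are given where they matter.

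**Figure D1:**
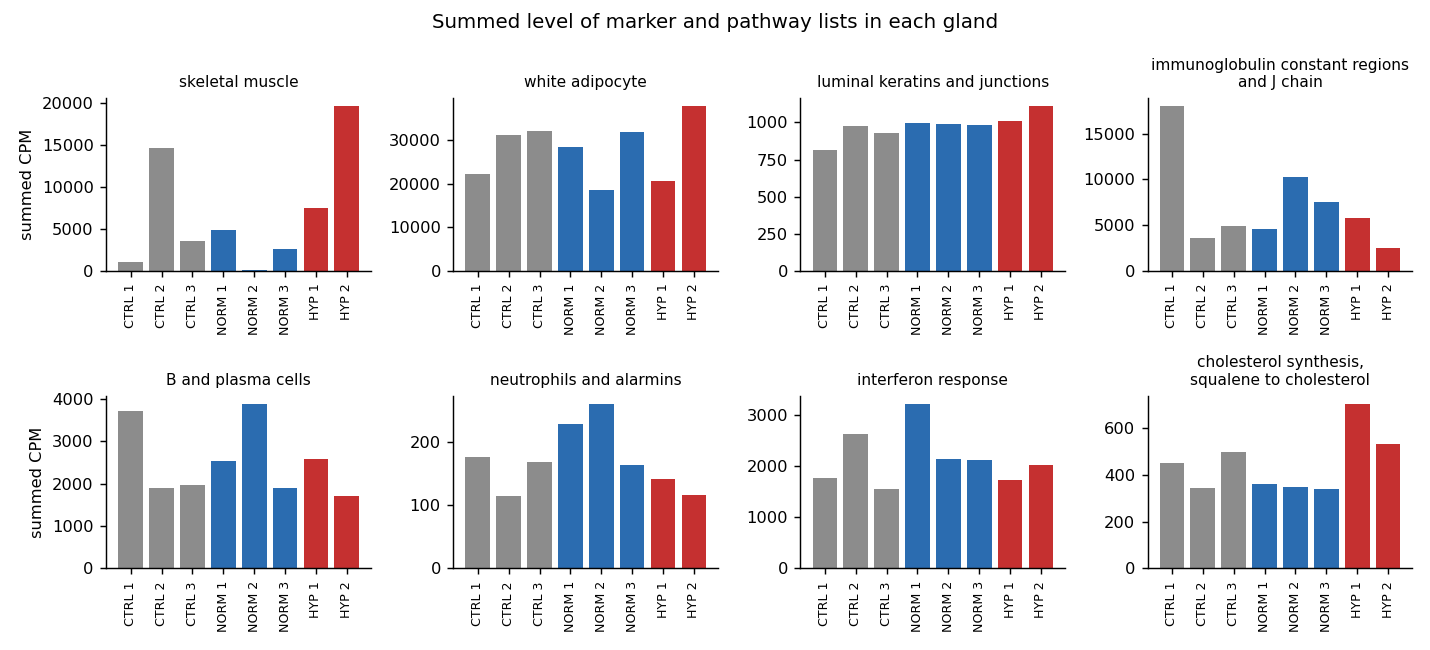
Summed CPM of 8 tissue, cell type and pathway gene lists in each of the 8 libraries (vertical axis from 0, 1 panel per list; bars are single libraries, grey for sEVCTRL, blue for sEVNORM and red for sEVHYP). Skeletal muscle ran from 124 CPM in sEVNORM replicate 2 to 19566 CPM in sEVHYP replicate 2, whereas luminal keratin and junction genes stayed between 817 and 1110 CPM.

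With sEVHYP, glands held more RNA of cholesterol and fatty acid synthesis, glycolysis and glycogen turnover than with sEVNORM. They held less of most immunoglobulin variable segments, neutrophil proteins, the mast cell proteases Cma1 and Mcpt4 and the fatty acid oxidation enzyme Cpt1a. Over all genes, 706 of 17858 (3.95%) passed an unadjusted P of 0.05 by edgeR's quasi-likelihood test, 402 higher (2.25%) and 304 lower (1.70%), where 893 would pass if no gene differed. Here "called" means past that unadjusted threshold. After Benjamini-Hochberg adjustment over all genes, edgeR called 0 (smallest adjusted P = 0.807), while DESeq2 fitted to the 5 libraries gave 1171 genes with an unadjusted P under 0.05 and called 82 after adjustment (0.459%), 54 higher and 28 lower. Every sEVHYP library was above every sEVNORM library for 2192 genes (12.3%) and below for 1876 (10.5%). Of the 706, 208 were still called without sEVHYP replicate 2 (391 called in all), 341 without sEVHYP replicate 1 (819 in all), 345 without sEVNORM replicate 2 (510 in all), and 405 and 401 without sEVNORM replicate 1 and 3.

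**Figure D2:**
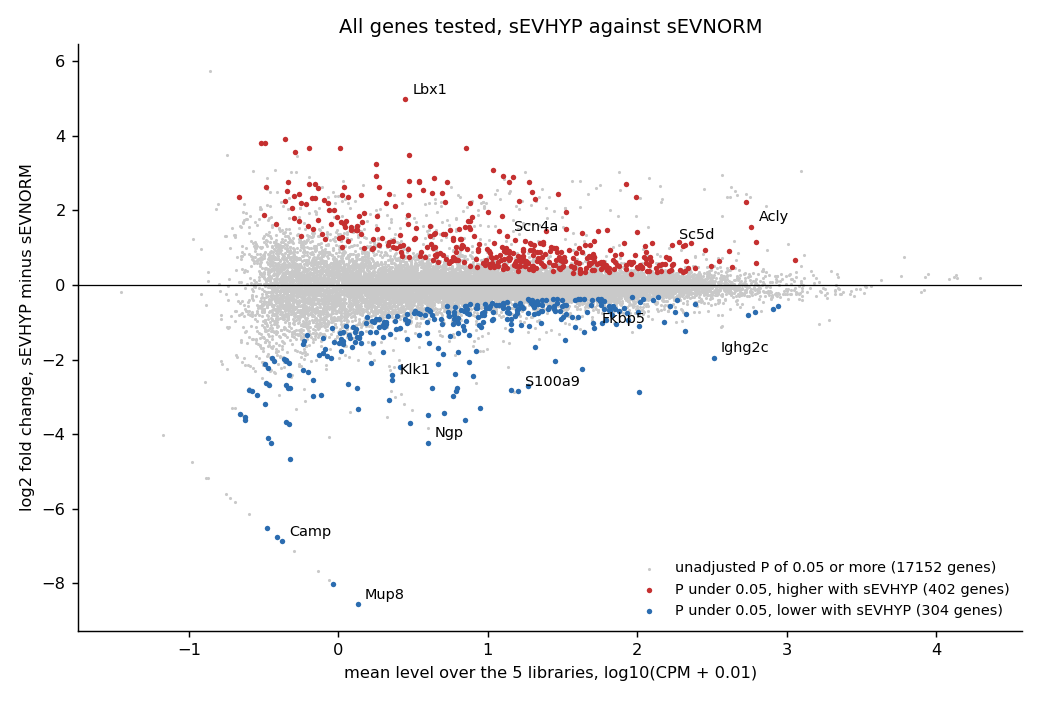
Log2 difference of sEVHYP minus sEVNORM (vertical axis) against mean level over the 5 libraries (horizontal axis, log10 of CPM plus a small constant) for the 17858 genes tested, with genes past an unadjusted P of 0.05 in red where higher and blue where lower. The 402 higher and 304 lower genes lie on both sides of a median difference of -0.02, and the labelled genes are among those described in the text.

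By kind of gene, immunoglobulin genes had the largest share of calls. Of 14781 protein-coding genes, 352 were higher and 209 lower (3.80% called). Of 173 immunoglobulin genes, 1 was higher and 31 lower (18.5% called, against 3.95% of all genes). Long non-coding genes gave 13 higher and 43 lower of 1279 (4.38%), and pseudogenes 33 higher and 7 lower of 991 (4.04%).

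All 9 genes of the mevalonate arm, which builds isoprenoid units from acetyl-CoA, had a higher fitted level with sEVHYP. So did all 12 genes that make squalene or turn it into cholesterol, against 8402 higher of 17858 over all genes. The median differences were 0.73 and 0.66, against -0.02 over all genes. Of these 21 genes, 2 in the first list (22.2%) and 8 in the second (66.7%) were called higher, against 2.25% of all genes, and 0 lower. The calls of 4 (Hmgcs1, Idi1, Sc5d and Hsd17b7) held in every alternative fit. Sc5d (chromosome 9, 42251595 to 42264256, GRCm38), the sterol desaturase of the last steps, was at 122, 109 and 120 CPM with sEVNORM and at 284 and 211 CPM with sEVHYP. Every sEVHYP library was far above the narrow sEVNORM range, while sEVCTRL (166, 148 and 214 CPM) was above sEVNORM and overlapped the lower sEVHYP value. The difference was 1.08 (SE 0.20, edgeR unadjusted P = 0.00042, adjusted P = 0.956, and DESeq2 adjusted P = 0.000143). Hsd17b7, a sterol ketoreductase, was at 11.8, 13.1 and 13.2 CPM with sEVNORM, at 26.2 and 21.3 CPM with sEVHYP and at 11.9 to 17.1 CPM with sEVCTRL. Here sEVHYP was above all 6 other libraries, with a difference of 0.91 (SE 0.21, unadjusted P = 0.00165).

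Several further genes of the pathway lost their call without sEVHYP replicate 1. Cyp51, the lanosterol demethylase, was at 19.7, 23.4 and 18.4 CPM with sEVNORM and at 48.8 and 33.1 CPM with sEVHYP, a difference of 1.00 (SE 0.27, unadjusted P = 0.00486) that was 0.69 and no longer called without sEVHYP replicate 1. Its exons overlap the oppositely oriented Akap9. Nsdhl, another demethylation enzyme, was at 59.6, 54.8 and 48.8 CPM against 113 and 79.3 CPM, and its difference of 0.82 became 0.54, also no longer called, without that library. Fdft1, squalene synthase, was at 24.2, 21.5 and 23.3 CPM against 37.4 and 36.2 CPM. Its sEVHYP libraries were nearly equal, while all sEVNORM libraries were below all sEVCTRL libraries (25.1 to 43.2 CPM). The difference of 0.68 was 0.65 and not called without sEVHYP replicate 1. Fdft1 overlaps Ctsb on the other strand. Dhcr7, the final reductase, was at 13.0, 14.6 and 13.2 CPM against 25.9 and 16.4 CPM. Its difference of 0.64 was 0.27 without sEVHYP replicate 1, and it was not called there or without sEVNORM replicate 1 or 3 (0.61 and 0.62). Leaving out sEVHYP replicate 1 lowered the median of the mevalonate arm from 0.73 to 0.29 and that of the later steps from 0.66 to 0.49.

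Of the genes that encode SREBP proteins, Srebf1 was called higher and Srebf2 was not. Of 11 genes of sterol sensing and uptake, 3 were called higher (27.3%, against 2.25% of all genes) and 0 lower, and the median difference was 0.00. Srebf1, which encodes the SREBP of fatty acid synthesis, was at 38.1, 36.6 and 45.4 CPM against 71.6 and 63.9 CPM, above the sEVCTRL range of 32.6 to 53.7 CPM (difference 0.76, SE 0.22, edgeR unadjusted P = 0.0067, DESeq2 adjusted P = 0.0172). Srebf1 shares exon sequence with Mir6922 and, on the other strand, Rai1. Srebf2, which encodes the SREBP of cholesterol synthesis, was at 36.0, 39.8 and 28.8 CPM against 43.3 and 29.6 CPM, with overlapping groups (difference 0.07, SE 0.26).

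Promoter windows of these genes (250 bases before to 50 bases after a RefSeq start, GRCm38.p6) were searched for a sterol regulatory element, TCACNCCAC on either strand. It was found in 1.44% of 27025 genes with a window, in 7 of 282 called higher (2.48%) and in 1 of 196 called lower (0.510%). Of 16 cholesterol synthesis genes with a window it was found in 1, Hmgcs1, which commits acetyl-CoA to the mevalonate arm, and of 15 fatty acid synthesis genes in 1, Mlxipl. It was also found in 2 of 22 glycolysis genes with a window (9.09%) and in 0 of 9 genes of sterol sensing and uptake. The matched windows of Hmgcs1 and Mlxipl are shown because both genes were among the 10 called higher with the smallest P, with the match in capitals. Hmgcs1 (chr13:119690101-119690400, plus strand) has it 137 bases before the start and Mlxipl (chr5:135106641-135106940, plus strand) 136 bases before a downstream start, while its upstream window (chr5:135089640-135089939) has no match.
Hmgcs1: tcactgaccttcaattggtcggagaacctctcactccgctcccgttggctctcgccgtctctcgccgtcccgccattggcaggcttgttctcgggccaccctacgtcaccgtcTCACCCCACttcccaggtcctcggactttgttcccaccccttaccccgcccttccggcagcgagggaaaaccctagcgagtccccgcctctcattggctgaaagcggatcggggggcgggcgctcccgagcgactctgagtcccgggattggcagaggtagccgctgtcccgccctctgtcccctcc
Mlxipl: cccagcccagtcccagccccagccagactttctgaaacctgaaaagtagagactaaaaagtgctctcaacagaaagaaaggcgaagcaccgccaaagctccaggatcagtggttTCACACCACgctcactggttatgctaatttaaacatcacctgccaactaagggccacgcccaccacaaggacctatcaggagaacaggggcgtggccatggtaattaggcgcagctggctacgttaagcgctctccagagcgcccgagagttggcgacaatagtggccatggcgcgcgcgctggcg

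Fatty acid and triglyceride synthesis was higher in all 20 genes listed (median difference 0.83), with 5 called higher (25%, against 2.25% of all genes) and 0 lower. Mlxipl (chromosome 5, 135089890 to 135138382) encodes ChREBP, the carbohydrate-responsive activator of lipid synthesis. It was at 29.0, 26.5 and 37.8 CPM with sEVNORM, at 70.7 and 59.7 CPM with sEVHYP and at 40.9, 34.7 and 49.3 CPM with sEVCTRL. Both sEVHYP libraries were above the other 6, with a difference of 1.07 (SE 0.21, edgeR unadjusted P = 0.000628, DESeq2 adjusted P = 0.00348). It was the single member of the 5 that kept its call in every alternative.

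The enzymes themselves stood out mainly in sEVHYP replicate 1. Acly, which makes cytosolic acetyl-CoA, was at 456, 250 and 267 CPM with sEVNORM and at 1554 and 363 CPM with sEVHYP, so the groups overlapped. Its difference was 1.56 (SE 0.62) and 0.16 without sEVHYP replicate 1, and the call was also lost without sEVCTRL replicate 3 (1.56) and sEVNORM replicates 2 (1.41) and 3 (1.44). Scd2, a desaturase, was at 197, 114 and 121 CPM against 377 and 228 CPM (1.07, and 0.67 and not called without sEVHYP replicate 1). Agpat2, of glycerolipid assembly, was at 143, 142 and 141 CPM against 370 and 218 CPM. This difference of 1.05 was 0.62 without sEVHYP replicate 1 and lost its call without each sEVNORM library as well (1.05 to 1.06). Dgat2, the last enzyme of triglyceride synthesis, was at 271, 146 and 206 CPM against 474 and 319 CPM (0.93, not called at 0.62 without sEVHYP replicate 1, at 0.73 without sEVNORM replicate 2, or at 0.93 without sEVNORM replicate 3). Fasn (1368, 834 and 826 CPM against 2442 and 1067 CPM) and Scd1 (12816, 11662 and 14437 CPM against 14258 and 15298 CPM) had overlapping groups and did not pass the test. The median of the 20 genes was 0.21 without sEVHYP replicate 1.

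Mitochondrial fatty acid oxidation had 1 call, of the opposite sign (6.25% called lower, against 1.70% of all genes). Cpt1a (chromosome 19, 3322334 to 3385733), which brings long-chain fatty acids into mitochondria, was at 71.6, 73.4 and 64.5 CPM with sEVNORM, at 46.3 and 42.7 CPM with sEVHYP and at 59.6, 61.0 and 56.5 CPM with sEVCTRL. The sEVHYP libraries were below, and the sEVNORM libraries above, every sEVCTRL library. Its difference was -0.65 (SE 0.14, edgeR unadjusted P = 0.00134, DESeq2 adjusted P = 0.0138). Most other members of the list of mitochondrial fatty acid oxidation went the other way, 14 of 16 being higher (median 0.22) with 0 called higher.

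**Figure D3:**
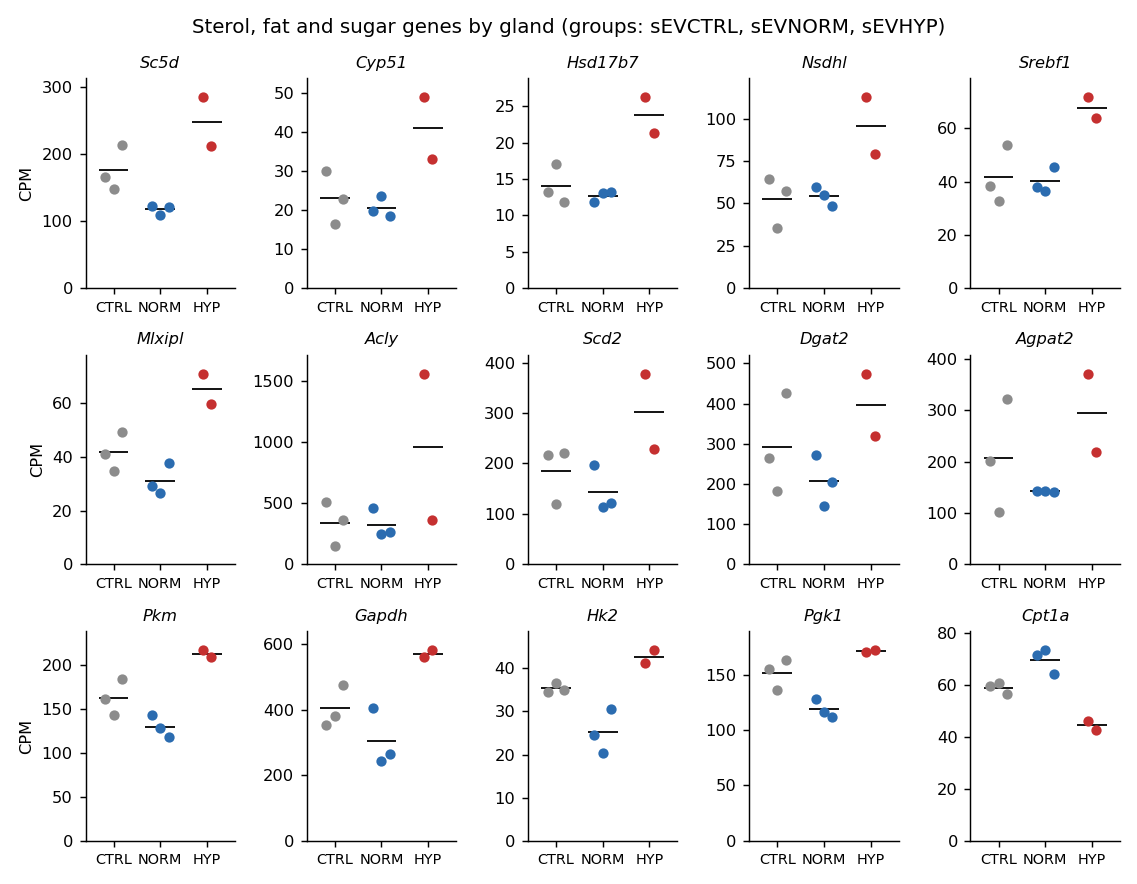
CPM of lipid and sugar metabolism genes in each library (vertical axis from 0, 1 panel per gene; points are libraries, horizontal lines are group means). In the panels of Sc5d, Srebf1, Mlxipl and Pkm both sEVHYP points lie above all sEVNORM points, and in that of Cpt1a below.

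Of 23 glycolysis genes, 20 had a higher fitted level (median difference 0.53), with 10 called higher (2.25% over all genes) and 0 lower, and 13 had every sEVHYP library above every sEVNORM library (12.3% over all genes). Of these, 4 kept their call in every alternative, namely Gapdh, Hk2, Pkm and Pgk1. Pkm (chromosome 9, 59656368 to 59679375), the pyruvate kinase of most tissues outside liver, was at 143, 129 and 118 CPM with sEVNORM, at 216 and 209 CPM with sEVHYP and at 161, 142 and 184 CPM with sEVCTRL. Its sEVHYP libraries were above the other 6 and close together (difference 0.71, SE 0.16, edgeR unadjusted P = 0.00179, DESeq2 adjusted P = 0.00376). Hk2, the inducible hexokinase, was at 24.6, 20.3 and 30.6 CPM against 41.2 and 44.2 CPM (0.76, SE 0.19). Gapdh was at 404, 243 and 264 CPM against 561 and 581 CPM (0.91, SE 0.24), and Pgk1 at 128, 116 and 112 CPM against 170 and 172 CPM (0.53, SE 0.15). For these 3 genes, too, both sEVHYP libraries exceeded all sEVCTRL libraries. Gapdh overlaps Iffo1 on the other strand, and Pkm shares exons with the predicted gene Gm49759.

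Other calls of this list were lost when single libraries were left out. Aldoa, an aldolase, was at 588, 266 and 383 CPM with sEVNORM and at 787 and 1066 CPM with sEVHYP (difference 1.17, SE 0.35), and it was 0.93 and not called without sEVHYP replicate 2. Ldha, lactate dehydrogenase, was at 660, 444 and 432 CPM against 776 and 773 CPM (0.60, SE 0.21). It lost its call without sEVNORM replicate 2 or 3 (0.50 and 0.49), and also without either sEVHYP library, where the size of the difference stayed (0.59 and 0.60). The muscle list moved in the same direction as glycolysis, with both sEVHYP libraries above all sEVNORM libraries (7492 and 19566 CPM against 124 to 4834 CPM). With the muscle level as a covariate the median of the glycolysis list was 0.53 and 10 members were called higher and 1 lower. These were not all the same genes, because Slc16a3 (1.44, against 1.93 without the covariate) and Tpi1 (0.53, against 0.72) were no longer called. Under the covariate the differences were 0.74 for Pkm, 0.79 for Gapdh, 0.65 for Hk2 and 0.55 for Pgk1, all still called. The sEVNORM libraries were lower than sEVCTRL in this list (median difference of sEVNORM minus sEVCTRL -0.35), and sEVHYP was higher (median 0.27). These 2 comparisons share the sEVCTRL libraries, and the sEVNORM libraries enter both the first of them and the main one.

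Glycogen metabolism was higher in all 13 genes (median 0.60, and 0.57 with the muscle covariate), 5 of them called higher (38.5%, against 2.25% of all genes). Phka1, a regulatory subunit of phosphorylase kinase, was at 23.0, 15.2 and 19.6 CPM with sEVNORM, at 38.3 and 71.2 CPM with sEVHYP and at 18.3, 53.6 and 25.7 CPM with sEVCTRL. It was above all sEVNORM libraries but overlapped sEVCTRL replicate 2, the library with the most muscle in that group. Its difference was 1.505 (SE 0.43, edgeR unadjusted P = 0.00671, DESeq2 adjusted P = 0.00378), or 1.08 with the covariate, and 0.99 and not called without sEVHYP replicate 2.

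HIF target genes outside glycolysis showed no shift as a list. Of 30, 19 were higher and 11 lower (median difference 0.04), with 1 called higher (3.33% of the list, against 2.25% of all genes) and 0 lower. The called gene was Ddit4, an inhibitor of mTORC1 signalling that glucocorticoids also induce. It was at 8.29, 8.64 and 13.0 CPM with sEVNORM, at 24.3 and 21.4 CPM with sEVHYP and at 13.6, 23.6 and 12.2 CPM with sEVCTRL. Above every sEVNORM library but overlapping sEVCTRL, it had a difference of 1.196 (SE 0.31, edgeR unadjusted P = 0.00404, DESeq2 adjusted P = 0.0106). Glycolytic HIF targets such as Hk2 and Pgk1, which were called higher, are counted in the glycolysis list above. Vegfa and Car9 of the present list, Slc2a1 of the glycolysis list, and Hif1a itself did not pass the test. Slc2a1, the glucose transporter GLUT1, was at 30.2, 31.5 and 24.3 CPM against 31.5 and 22.9 CPM (-0.08, SE 0.21). Vegfa was at 67.1, 52.9 and 67.7 CPM against 61.7 and 113 CPM (0.48, SE 0.27), and Car9, a carbonic anhydrase, stayed between 0.724 and 1.12 CPM in all 5 libraries (0.23, SE 0.51). Hif1a, the oxygen-regulated subunit, was at 357, 645 and 386 CPM against 403 and 453 CPM (-0.11, SE 0.30). The groups overlapped in these 4 genes, and sEVCTRL was at 58.8 to 88.5 CPM for Vegfa, 23.3 to 29.7 CPM for Slc2a1 and 252 to 428 CPM for Hif1a.

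The core hypoxia response element (ACGTG or GCGTG, either strand) is common in promoter windows. It was found in 46.7% of all genes with a window, 63.7% of those tested, 68.8% of those called higher and 51.0% of those called lower. It was present in 19 of 22 glycolysis genes with a window and in 20 of 21 HIF targets outside glycolysis, the list with no shift. Pgk1 (chrX:106186850-106187149, plus strand) is shown as a glycolysis gene whose call held in every fit. It has 2 matches, in capitals, 150 and 131 bases before the start.
Pgk1: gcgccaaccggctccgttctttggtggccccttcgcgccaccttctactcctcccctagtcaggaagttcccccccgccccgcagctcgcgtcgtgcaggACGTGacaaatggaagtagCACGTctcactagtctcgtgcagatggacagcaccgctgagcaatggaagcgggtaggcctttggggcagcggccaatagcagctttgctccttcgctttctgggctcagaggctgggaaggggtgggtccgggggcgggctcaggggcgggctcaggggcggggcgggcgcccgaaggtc

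Nuclear genes of the respiratory chain were slightly higher almost without exception. All 36 genes of complex I, 14 of 14 of complexes II and III, 13 of 14 of complex IV and 16 of 16 of ATP synthase had a higher fitted level with sEVHYP. The sizes were small, with medians of 0.24, 0.29, 0.28 and 0.26. In the same order, 2, 1, 2 and 1 genes were called higher (5.56%, 7.14%, 14.3% and 6.25%, against 2.25% of all genes). Of the 36 complex I genes, 26 had no overlap between groups (12.3% over all genes). Ndufa5 was at 38.3, 34.3 and 36.0 CPM with sEVNORM and at 48.4 and 48.4 CPM with sEVHYP (0.42, SE 0.14), and lost its call without either sEVHYP library (0.42 in each case). Atp5g3, a subunit of the proton channel, was at 221, 204 and 216 CPM against 292 and 290 CPM (0.45, SE 0.15), and was not called without sEVNORM replicate 2 (0.41) or either sEVHYP library (0.44 and 0.45). With the muscle covariate Ndufa5 (0.38) and Atp5g3 (0.45) were still called. Ndufa12 (0.40), Sdhd (0.41), Cox7c (0.34) and Cox7a1 (0.89, against 1.56 without the covariate) were no longer called. For complex I the median was 0.00 for sEVHYP minus sEVCTRL and -0.23 for sEVNORM minus sEVCTRL, side by side and sharing the sEVCTRL libraries. Mitochondrial ribosomal proteins were higher in 62 of 75 with a median of 0.12.

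Among single genes called higher, Lbx1, a homeobox gene of migrating muscle precursors, had the smallest P and the largest fold. It was at 0.241, 0.0443 and 0.331 CPM with sEVNORM, at 3.57 and 9.80 CPM with sEVHYP and at 0.274 to 0.593 CPM with sEVCTRL. Both sEVHYP libraries were above all others by a wide margin, but differed from each other by more than the other groups spanned. The difference of 4.99 (SE 0.69, edgeR adjusted P = 0.807) was 4.51 with the muscle covariate. Tuba4a, an alpha-tubulin, was at 37.4, 33.7 and 29.0 CPM against 61.8 and 78.7 CPM, above the sEVCTRL range of 38.04 to 51.0 CPM (1.07, SE 0.19, edgeR unadjusted P = 0.000303, DESeq2 adjusted P = 0.00118). It overlaps Stk16 on the other strand. Paqr9, a membrane receptor-like protein, was at 40.6, 37.1 and 37.7 CPM against 75.7 and 60.4 CPM, again above all 6 other libraries (0.82, SE 0.15, unadjusted P = 0.000391).

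An ion channel gene was also among the 10 with the smallest P. Scn4a, the sodium channel of skeletal muscle, was at 10.1, 8.95 and 6.15 CPM with sEVNORM, at 17.7 and 24.1 CPM with sEVHYP and at 13.2 to 18.1 CPM with sEVCTRL. Its sEVHYP libraries were above every sEVNORM library but not above every sEVCTRL library (1.31, SE 0.26, edgeR unadjusted P = 0.000718, DESeq2 adjusted P = 0.00761).

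The largest called differences after Lbx1 were muscle genes. Ky, a muscle scaffold protein, was at 2.37, 0.0887 and 1.28 CPM with sEVNORM and at 8.06 and 24.0 CPM with sEVHYP, and reached 9.62 CPM in sEVCTRL replicate 2 (difference 3.67, SE 0.99). Prkag3, the muscle-type gamma subunit of AMPK, was at 1.01, 0 and 0.71 CPM against 3.39 and 9.58 CPM (3.48, SE 1.09), and its difference was 2.55 and not called without sEVHYP replicate 2. Of the 32 genes of the muscle list itself, 1 was called higher (3.125%, against 2.25% of all genes) and 0 lower. It was Des, the intermediate filament of muscle. The SEs of the others were large (1.54 for Myh4, the fast myosin, at 624, 1.95 and 309 CPM against 1132 and 4106 CPM). Des was at 59.3, 17.997 and 32.1 CPM against 72.1 and 130 CPM (1.47, SE 0.60), and was not called without sEVCTRL replicate 3 (1.47), sEVNORM replicate 2 (1.14) or 3 (1.39), or sEVHYP replicate 2 (0.98).

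**Figure D4:**
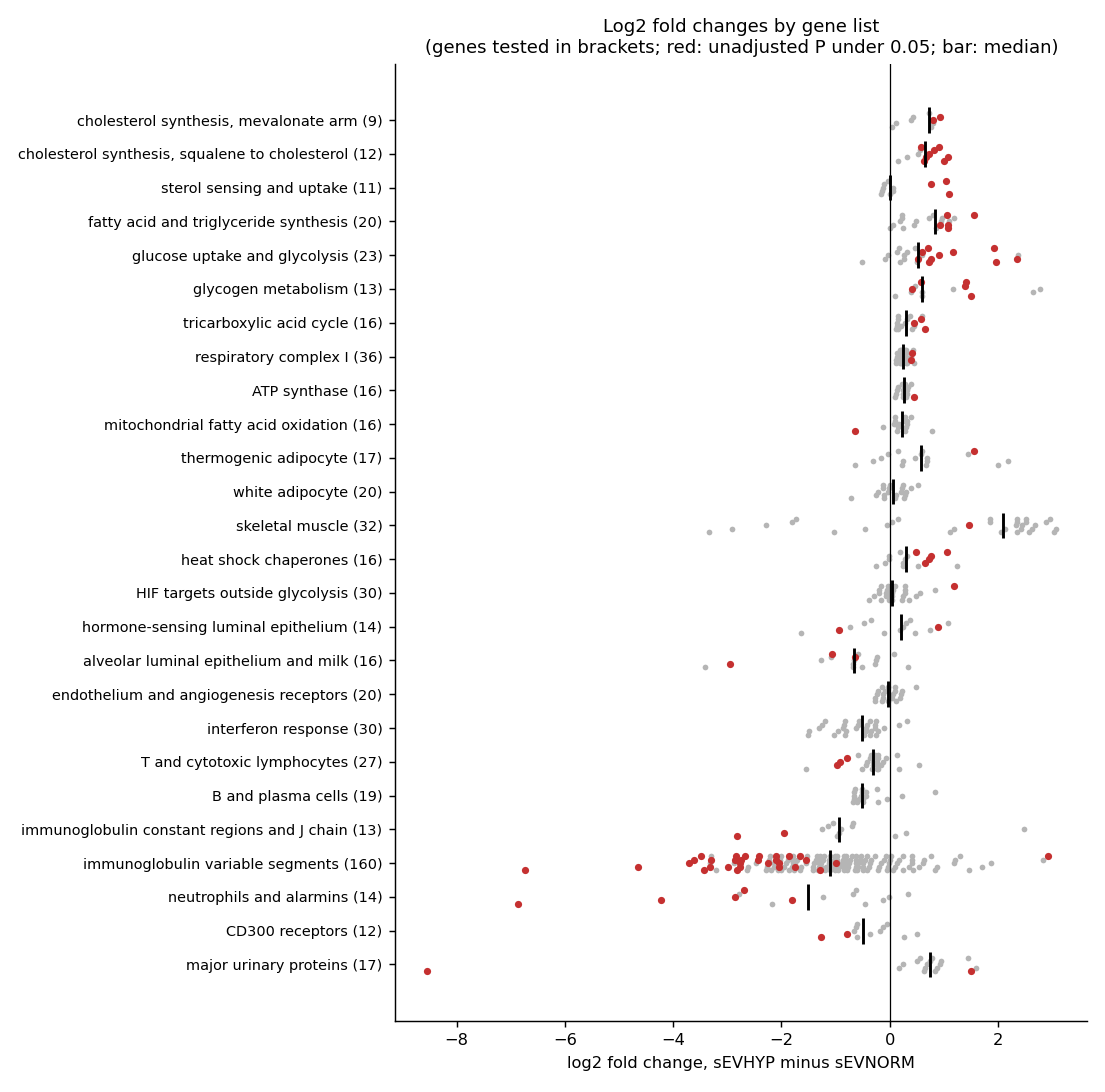
Log2 differences of sEVHYP minus sEVNORM for every tested member of 26 gene lists (horizontal axis; points are genes, red where called, and the vertical bar is the list median). Members of the cholesterol synthesis, fatty acid synthesis, glycogen, complex I and ATP synthase lists all lie right of 0, and members of the immunoglobulin, neutrophil and interferon lists mostly left.

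Luminal keratins and junction genes split into 10 higher and 9 lower (median 0.03, 0 called). Esr1 and Pgr, the receptors for estrogen and progesterone, had overlapping groups, at 62.8 to 122 CPM against 84.4 and 117 CPM for Esr1 and at 47.2 to 115 CPM against 84.8 and 149 CPM for Pgr. Among 14 hormone-sensing luminal genes, Wnt4 was called higher (7.14%, against 2.25% of all genes) and Tnfsf11 lower (7.14%, against 1.70%). Both are paracrine signals that progesterone induces. Tnfsf11, the ligand RANKL, was at 15.0, 14.1 and 10.1 CPM with sEVNORM, at 8.25 and 5.41 CPM with sEVHYP and at 8.68 to 10.9 CPM with sEVCTRL. All sEVHYP values were below all others, with a difference of -0.94 (SE 0.27, edgeR unadjusted P = 0.00736), which was -0.67 and not called without sEVHYP replicate 2. Wnt4 was at 6.36, 2.70 and 4.64 CPM against 7.33 and 9.69 CPM. Its difference of 0.90 (SE 0.39, unadjusted P = 0.0481) lost its call in 5 fits that left out 1 library, sEVCTRL replicate 2 (0.89), sEVNORM replicate 2 (0.63) or 3 (0.91), and sEVHYP replicate 1 (1.08) or 2 (0.68). Areg, an EGF receptor ligand downstream of estrogen, was at 10.4, 79.0 and 68.8 CPM against 95.5 and 126 CPM and did not pass the test (1.07, SE 0.73).

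Milk and alveolar genes were lower in 14 of 16 (median -0.66), 3 of them called lower (18.75%, against 1.70% of all genes). Their summed level was 1866, 1772 and 1831 CPM with sEVNORM, 1308 and 1210 CPM with sEVHYP and 1396 to 1560 CPM with sEVCTRL. The sEVHYP sums were the lowest of the 8. Csn1s2a, a casein, was at 2.57, 0.399 and 0.520 CPM with sEVNORM and at 0.183 and 0.107 CPM with sEVHYP, and its difference of -2.95 was -1.61 and not called without sEVNORM replicate 1 (nor without sEVHYP replicate 1, -3.38, or 2, -2.64). Without sEVNORM replicate 1 the median of the list was -0.17. Proliferation genes were higher in 22 of 25 with 0 called, and their median of 0.17 became -0.34 without sEVHYP replicate 1. Mki67, the proliferation antigen, was at 88.9, 153 and 142 CPM against 190 and 107 CPM.

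Of the gene lists, immunoglobulin variable segments held the most lower calls. Of 160 variable segments tested, of 218 listed, 133 were lower and 27 higher (median -1.11), and 29 were called lower and 1 higher (18.1% lower of those tested, against 1.70% of all genes). Only segments with enough counts could be tested, and near-identical segments can share reads, so single segments are uncertain. The median was the same with the 1 segment at 0 in both sEVHYP libraries set to its bound. The summed level of the tested segments overlapped between groups, at 732, 2352 and 1341 CPM with sEVNORM and 1567 and 439 CPM with sEVHYP. Ighg2c, the constant region of the IgG2c class, was at 204, 581 and 600 CPM with sEVNORM, at 102 and 137 CPM with sEVHYP and at 901, 290 and 385 CPM with sEVCTRL. Both sEVHYP libraries were below all 6 others, and the difference was -1.95 (SE 0.58, edgeR unadjusted P = 0.00861, DESeq2 adjusted P = 0.00555), which was -1.75 and not called without sEVHYP replicate 1. Ighm, the IgM constant region, was at 1680, 2789 and 1744 CPM against 1153 and 860 CPM without passing the test (-1.04, SE 0.48). Iglv2, a lambda light chain segment, was at 5.95, 12.8 and 13.5 CPM against 1.88 and 3.32 CPM (-2.05, SE 0.55), and Ighv11-2 at 1.29, 15.3 and 7.47 CPM against 0.825 and 0.642 CPM (-3.43, SE 1.02). Igkv1-88 was at 3.66, 4.48 and 18.7 CPM against 1.33 and 0.910 CPM (-2.98, and -1.85 without sEVNORM replicate 3). These 3 segments kept their calls in every alternative.

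The exception was Ighv1-39, called higher. It was at 2.29, 4.39 and 3.74 CPM with sEVNORM and at 50.5 and 2.36 CPM with sEVHYP, so the call rested on sEVHYP replicate 1, and the difference of 2.93 was -0.56 without it. The size of the immunoglobulin difference depended on single libraries. The median of the variable segments was -0.64 without sEVNORM replicate 2, -1.92 without sEVHYP replicate 1 and -0.40 with the muscle covariate, where 101 segments were lower and 59 higher. General B and plasma cell genes were lower in 17 of 19 (median -0.51) with 0 called in either direction, Cd79a of the B cell receptor being at 121, 181 and 75.0 CPM against 128 and 51.0 CPM.

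Neutrophil proteins and alarmins were lower in 13 of 14 tested (of 18 listed), with 5 called lower (35.7%, against 1.70% of all genes) and a median of -1.52. Ngp (chromosome 9, 110419747 to 110423012), a granule protein of immature neutrophils, was at 4.42, 12.7 and 1.99 CPM with sEVNORM, at 0.596 and 0.0535 CPM with sEVHYP and at 0.502 to 3.30 CPM with sEVCTRL. The sEVHYP libraries were below all sEVNORM libraries and overlapped sEVCTRL, and the difference was -4.22 (SE 1.201, edgeR unadjusted P = 0.00647, DESeq2 adjusted P = 0.00348), or -6.74 without sEVHYP replicate 1. Camp, which encodes the antimicrobial peptide cathelicidin, was at 0.483, 1.33 and 0.237 CPM and at 0 in both sEVHYP libraries. Against the floor of 3 counts per library it was at least 4.58-fold lower, or at least 2.41-fold without sEVNORM replicate 2. S100a9, an alarmin subunit, was at 15.3, 47.7 and 9.89 CPM against 5.13 and 1.55 CPM (-2.85, SE 1.04), and it was not called without sEVNORM replicate 2 (-1.90) or sEVHYP replicate 2 (-2.24). Retnlg was at 8.45, 13.5 and 4.54 CPM against 3.21 and 1.82 CPM (-1.81, and -1.46 and not called without sEVHYP replicate 2). Against sEVCTRL the list had a median of -0.43 for sEVHYP and 0.97 for sEVNORM, and sEVNORM replicate 2, with the least muscle and the most immunoglobulin of its group, also held the most S100a9. With the muscle covariate the median was -0.99.

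Cma1 and Mcpt4, proteases of mast cells, were among the 10 lower calls with the smallest P, and no list of mast cell genes was examined. Cma1 (chromosome 14, 55941451 to 55944675), a chymase of connective tissue mast cells, was at 79.3, 83.0 and 87.3 CPM with sEVNORM, at 53.2 and 52.6 CPM with sEVHYP and at 56.6, 56.0 and 54.4 CPM with sEVCTRL. The groups were tight and did not overlap (difference -0.65, SE 0.13, edgeR unadjusted P = 0.000889, DESeq2 adjusted P = 0.00719). Its sEVHYP minus sEVCTRL difference was -0.07 and its sEVNORM minus sEVCTRL difference 0.58. Mcpt4, a second chymase, was at 81.0, 116 and 108 CPM against 64.4 and 56.8 CPM, with sEVCTRL at 69.5 to 74.0 CPM (-0.75, SE 0.18). Both genes thus had sEVNORM above all sEVCTRL libraries.

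**Figure D5:**
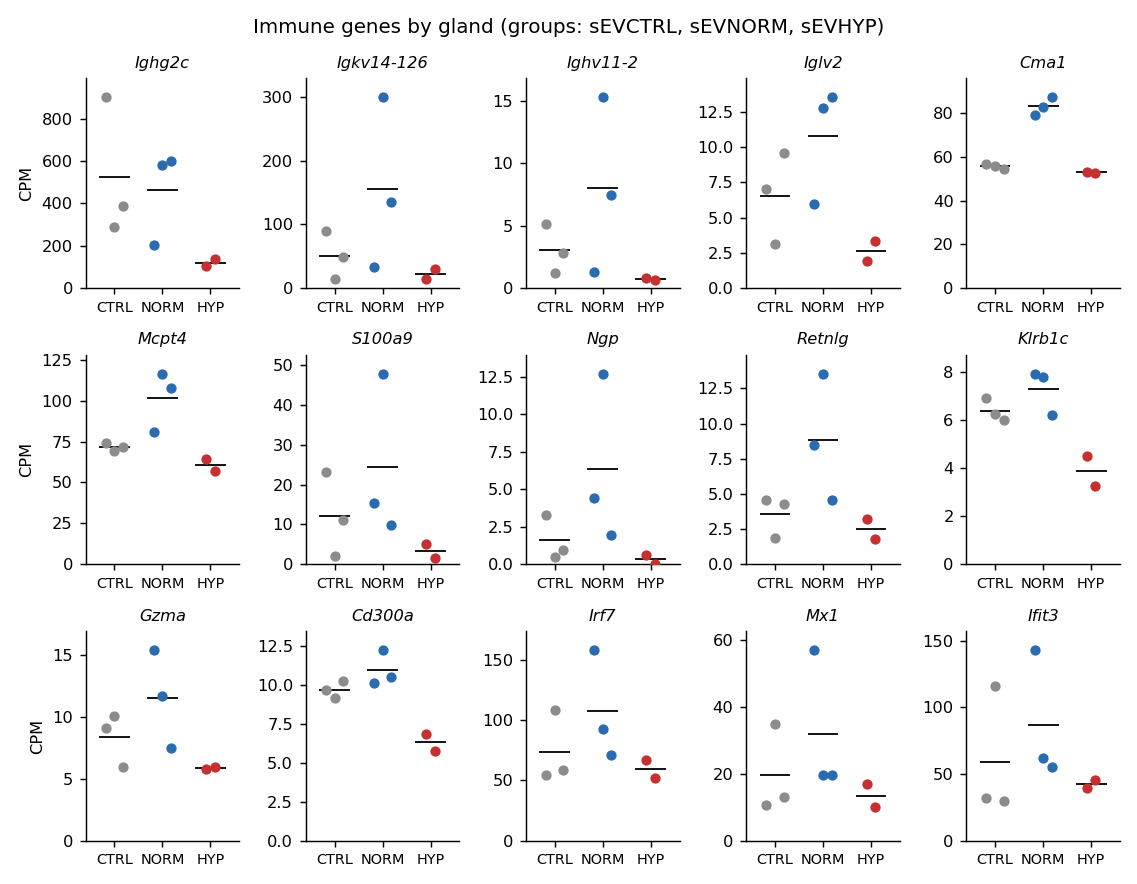
CPM of immune genes in each library (vertical axis from 0, 1 panel per gene; points are libraries, horizontal lines are group means). For Cma1 and Mcpt4 the sEVNORM points lie above those of both other groups, and for Ighg2c and Ngp sEVHYP lies below all sEVNORM points.

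T and cytotoxic lymphocyte genes were lower in 24 of 27 (median -0.30), with 3 called lower (11.1%, against 1.70% of all genes). None of the 3 kept its call in every alternative. Klrb1c, the NK1.1 receptor of natural killer cells, was at 7.92, 7.80 and 6.20 CPM with sEVNORM, at 4.49 and 3.27 CPM with sEVHYP and at 6.02 to 6.91 CPM with sEVCTRL. The sEVHYP libraries were below all 6 others (-0.91, SE 0.26), and without sEVHYP replicate 2 the difference was -0.70 and not called. Klrb1c shares exons with the predicted gene Gm44511. T cell coreceptors overlapped between groups, Cd4 being at 34.3 to 68.8 CPM against 47.8 and 33.3 CPM and Cd8a at 80.5 to 116 CPM against 103 and 58.5 CPM. Macrophage genes were lower in 16 of 21 (median -0.13) with 2 called lower (9.52%, against 1.70% of all genes).

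Interferon-stimulated genes were lower in 28 of 30 and without overlap in 15 (10.5% over all genes), yet 0 was called (median -0.52, and -0.31 without sEVNORM replicate 1). Ifit3, an interferon-induced antiviral protein, shows the spread. It was at 143, 62.3 and 55.5 CPM with sEVNORM, at 39.8 and 45.9 CPM with sEVHYP and at 32.1, 116 and 30.1 CPM with sEVCTRL (-1.02, SE 0.62). High values occurred in sEVNORM replicate 1 and sEVCTRL replicate 2. Inflammatory cytokines were lower in 12 of 13 with 0 called (median -0.33), and this median was 0.08 without sEVHYP replicate 2. In the other direction, Ccl22, a chemokine of dendritic cells and macrophages that draws CCR4-bearing T cells, was at 18.9, 25.9 and 19.7 CPM with sEVNORM, at 39.5 and 40.4 CPM with sEVHYP and at 22.9, 22.3 and 40.5 CPM with sEVCTRL. It was above all sEVNORM libraries and level with 1 sEVCTRL library (0.90, SE 0.27, edgeR unadjusted P = 0.00964, DESeq2 adjusted P = 0.0172). Ccl22 was the 1 called gene of 29 chemokine ligands (3.45%, against 2.25% of all genes called higher).

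Stress and glucocorticoid genes gave calls in both directions. Of 16 heat shock chaperones 12 were higher, with 5 called higher (31.25%, against 2.25% of all genes) and 0 lower (median 0.29). Of these 5, 1 kept its call in every alternative, Dnajb1. With the muscle covariate Hspa1a (0.89) and Hspb8 (0.57) were not called, while Dnajb1 (0.72), Hspa1b (0.69) and Hsph1 (0.63) were. Dnajb1, an HSP40 cochaperone, was at 24.7, 25.4 and 23.4 CPM with sEVNORM, at 40.0 and 37.4 CPM with sEVHYP and at 28.1, 26.1 and 36.1 CPM with sEVCTRL. It was above the other 6 libraries (0.66, SE 0.18, edgeR unadjusted P = 0.00446, DESeq2 adjusted P = 0.014). Hspa1b, an inducible HSP70, was at 24.9, 33.2 and 30.1 CPM against 44.3 and 53.4 CPM (0.73, and 0.59 and not called without sEVHYP replicate 2). Fkbp5, an immunophilin that glucocorticoids induce, was at 73.8, 45.5 and 78.6 CPM with sEVNORM, at 26.7 and 32.5 CPM with sEVHYP and at 45.1 to 54.3 CPM with sEVCTRL. Its sEVHYP libraries were below the other 6 (-1.16, SE 0.25, edgeR unadjusted P = 0.00112, DESeq2 adjusted P = 0.0231). Glucocorticoid targets as a list split into 11 higher and 6 lower. Ddit4 was called higher (5.88%, against 2.25% of all genes) and Fkbp5 lower (5.88%, against 1.70%).

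Other lower calls with small P were Id3, Klk1, Zc3h6 and Coro2a. Id3, an inhibitor of helix-loop-helix factors, was at 50.9, 49.9 and 45.4 CPM with sEVNORM, at 25.7 and 28.4 CPM with sEVHYP and at 38.6 to 48.3 CPM with sEVCTRL (-0.85, SE 0.16, edgeR unadjusted P = 0.000556, DESeq2 adjusted P = 0.00118). Klk1, tissue kallikrein, was at 4.63, 3.77 and 1.89 CPM against 0.733 and 0.428 CPM (-2.54, SE 0.53), with sEVCTRL at 1.00 to 1.63 CPM. In both genes the sEVHYP libraries were below all 6 others. Zc3h6, a zinc finger gene, was at 24.4, 26.2 and 27.3 CPM against 15.7 and 15.0 CPM (-0.76, SE 0.18), and Coro2a, a coronin, at 79.4, 71.9 and 78.4 CPM against 49.2 and 51.6 CPM (-0.60, SE 0.14). Zc3h6 overlaps predicted genes on both strands, and Coro2a overlaps Gm16731 on the other strand.

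The major urinary proteins are lipocalins of near-identical sequence made mainly in liver and also in mammary gland. They were higher in 16 of 17 tested (median 0.74). In each direction 1 was called (5.88%, against 2.25% of all genes higher and 1.70% lower). Mup22, the member with most counts here, was at 4514, 3322 and 6511 CPM with sEVNORM, at 6669 and 9321 CPM with sEVHYP and at 2171 to 4521 CPM with sEVCTRL, and did not pass the test (0.74, SE 0.37, unadjusted P = 0.0736). Mup8 went the other way, at 0.563, 2.57 and 3.55 CPM with sEVNORM, 1.00 to 1.59 CPM with sEVCTRL and 0 in both sEVHYP libraries. Against the floor of 3 counts Mup8 was at least 14.9-fold lower. Counts of such close copies can be split between them by the counting program, so single members are uncertain.

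Further lists showed few calls. Genes of limb and body wall patterning were higher in 17 of 20 (median 0.31) with 3 called higher (15%, against 2.25% of all genes). Among them was Prrx2, a homeobox gene of mesenchyme, at 0.483, 0.709 and 0.568 CPM against 2.24 and 1.39 CPM (1.63, and 1.24 without sEVHYP replicate 1). Of 17 genes of the epithelial-mesenchymal transition, 2 were called higher (11.8%, against 2.25% of all genes), Lbx1 and Fhl3. Fhl3, a muscle-enriched LIM protein, was at 11.4, 4.17 and 5.16 CPM against 15.4 and 22.7 CPM (1.46, and 1.16 without sEVHYP replicate 2). Endothelial genes split into 9 higher and 11 lower with 0 called, and Pecam1, the endothelial adhesion molecule CD31, was at 253, 273 and 260 CPM against 218 and 215 CPM (-0.27, SE 0.16). White adipocyte genes split into 11 higher and 9 lower with 0 called (median 0.05). Thermogenic adipocyte genes were higher in 13 of 17 with 1 called higher (5.88%, against 2.25% of all genes) and 0 lower. Ucp1, the uncoupling protein of brown fat, was at 0.0402, 2.04 and 0.331 CPM against 0.321 and 6.16 CPM, with the high value in sEVHYP replicate 2. Its groups overlapped, and its difference of 2.00 (SE 1.37) did not pass the test. The difference was -1.31 without sEVHYP replicate 2 and 4.12 without sEVNORM replicate 2. With the muscle covariate it was 4.71 and called (edgeR unadjusted P = 0.00857). A list of protein and RT-PCR markers, picked in the study partly on these same libraries and so no independent evidence, closes the account. Of its 26 genes tested, 12 were higher and 14 lower. Lbx1 was called higher (3.85%, against 2.25% of all genes) and S100a9 lower (3.85%, against 1.70%).

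The list medians of the 2 tumor sEV groups against sEVCTRL had opposite signs in 35 of 58 lists and the same sign in 23, in comparisons that share the sEVCTRL libraries and are not independent. The median difference from sEVCTRL was 0.42 for sEVHYP and -0.19 for sEVNORM in the mevalonate arm, and 0.48 and -0.14 in the later cholesterol steps. It was 0.54 and -0.17 in fatty acid synthesis, 0.53 and -0.44 in glycogen metabolism, and 0.05 and -0.29 among heat shock chaperones. Interferon-stimulated genes had -0.13 for sEVHYP and 0.45 for sEVNORM, and immunoglobulin variable segments -1.02 and 0.11. Signs were the same for luminal keratins and junction genes (0.24 and 0.28), hormone-sensing luminal genes (0.32 and 0.18) and endothelial genes (-0.17 and -0.19). Over all genes both medians were near 0 (-0.02 and -0.00). Both sEVHYP libraries were above all 6 other libraries for 8 of the 21 cholesterol synthesis genes, 6 of 23 glycolysis genes and 7 of 17 major urinary proteins, and below them for 13 of 160 immunoglobulin variable segments. Over all genes these counts were 614 above and 493 below.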

How the data were processed

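RNA of 8 mammary glands was sequenced (2 sEVHYP, 3 sEVNORM and 3 sEVCTRL, from the sample labels), with Direct-zol extraction and the Lexogen Sense mRNA-Seq V2 kit. The authors aligned reads with STAR to mm10 and estimated transcripts with RSEM 1.2.12 against Ensembl genes. The deposited values are whole-number counts per gene with no normalization, and how the estimates were rounded is not given in the sources used here. Of 51789 genes, 51596 were given a symbol and GRCm38 position from GENCODE release M21, and 0 lie on the mitochondrial chromosome. RefSeq promoter windows (GRCm38.p6) were matched by symbol for 12265 genes tested.

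The fit used edgeR 4.0.16 and limma 3.58.1 under R 4.3.3. Genes passed filterByExpr at 10 counts, libraries were scaled by TMM (0.975 to 1.02), and differences were tested with the two-sided quasi-likelihood F-test. The 3 groups shared 1 model with 5 residual and 4.08 prior degrees of freedom. Benjamini-Hochberg adjustment was over all genes tested. The unadjusted threshold of 0.05 is the one the study states. CPM floors use 3 counts, which cover counting error only. The study gives 2 to 3 animals per group for this experiment, and P values measure the spread between these glands. The scripts were tested on simulated data.

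Genes named are, per direction, the 10 with the smallest P and the 6 with the largest difference among those called, without overlap and at a mean of at least 1 CPM (predicted genes left out), the called members of 58 gene lists, otherwise members that define a list or differ most, and the markers measured in the study. Some genes the rule names are not reported here. The members and lists were chosen with earlier results of these data known. Alternatives were DESeq2 1.42.0 on the 5 or all 8 libraries, edgeR on the 5, DESeq2 size factors, other count filters, a replicate block, a muscle covariate (mean log2 CPM of the muscle list), and each library left out. No source pairs samples by replicate number. Deviations of libraries of the same number correlated at -0.134 and -0.307 for sEVNORM with sEVHYP. These correlations were 0.369 and 0.337 for sEVCTRL with sEVHYP, and -0.285, -0.416 and -0.013 for sEVCTRL with sEVNORM. With 2 sEVHYP libraries the deviations of 1 mirror those of the other, so these values cannot decide whether the numbers pair samples.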

Additional observations from a re-analysis of the deposited data

How the results depend on the processing

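The 706 genes past an unadjusted P of 0.05 (402 higher, 304 lower) became 1171 (677 and 494) with DESeq2 on the 5 libraries, 1068 (641 higher) with edgeR on the 5, and 1102 (639 and 463) with no filter on low counts. With an adjusted P, DESeq2 on the 5 libraries called 82 genes, DESeq2 on all 8 called 19, edgeR with no filter called 1, and every other edgeR fit called 0. The replicate block gave 769 genes (392 higher, 377 lower), 428 of them among the 706, and 0 after adjustment. No source ties samples of the same number to 1 animal or batch, so calls lost under it are not read as weaker effects. With the muscle covariate 875 genes passed, 395 higher and 480 lower, of which 425 were among the 706. Leaving out 1 library gave 391 (without sEVHYP replicate 2) to 990 genes (without sEVCTRL replicate 2), with 189 to 606 higher and 202 to 457 lower. The count of higher genes was 245 without sEVNORM replicate 2, and 457 genes were lower without sEVHYP replicate 1. With 1 sEVHYP library left, its spread is assumed to equal that of the other groups. The difference of Ighv1-39 was -0.56 without sEVHYP replicate 1, the 1 reversal among called genes, and 3.86 without sEVHYP replicate 2. For the log2 differences of named genes, settings other than a left-out library kept the direction and side of the threshold in 1144 comparisons. They lost the call in 98, gained it in 7 and changed sign without a call in 11. For left-out libraries these numbers were 986, 278, 5 and 18. The cause was not tested. The sEVHYP spread rests on 2 glands.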
